A study of Panax notoginseng with 12 samples.

Results

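In the root transcriptome of Panax notoginseng, 9 of the 146330 loci in the table carried phosphoenolpyruvate (PEP) carboxylase in the description of their best protein hit. They were found by searching the first protein description of every locus for PEP carboxylase or PEP carboxykinase. All 9 matched by description alone, and 8 of them exceeded 1 FPKM (fragments scaled for transcript length and sequencing depth) in at least 1 library, as did 38010 loci of the table. No protein hit named a carboxykinase. XLOC_058717 was also singled out by its row name because of its measured levels, so its differences between groups are given as a description, with no test. Of the 8 loci, 7 averaged 5 FPKM or more in some treatment and entered a fit over 22592 loci.

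The libraries came from roots of P. notoginseng, a perennial medicinal herb, grown in hydroponic culture. There were 3 libraries for each of 4 treatments. CK had no added nitrogen, 15A had 15 mM ammonium, 15N had 15 mM nitrate, and 15AN had both ions at 15 mM each. According to the methods, ammonium was given as ammonium sulfate, nitrate as calcium nitrate and the mixture as ammonium nitrate, so that the partner ions also differed, and all solutions, CK included, held the nitrification inhibitor dicyandiamide. The methods describe 2-year-old seedlings, pretreated in a solution with some ammonium nitrate and harvested on the third day of treatment, whereas the labels call them 3-day-old seedlings. RNA was pooled, and nothing says whether the libraries of a treatment came from separate pots, so p-values measure only the spread between these libraries, which may be technical.

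PEP carboxylase (PEPC) joins bicarbonate to PEP, an intermediate of glycolysis, and yields oxaloacetate. In roots it is known for refilling the citric acid cycle when carbon skeletons leave it for amino acids, and for making malate that balances charge and pH during nitrate and ammonium uptake. Plant-type PEPC is inhibited by malate, and phosphorylation by the small enzyme PEPC kinase makes it less sensitive. A divergent bacterial-type PEPC, called PEPC 4 in several genomes, lacks that phosphorylation site. PEP carboxykinase (PEPCK) runs the opposite way, turning oxaloacetate and ATP into PEP and carbon dioxide.

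The 9 loci fell into 5 roles by their hits. XLOC_108071, XLOC_103795, XLOC_130436 and XLOC_011238 were named as PEPC, with best protein hits in grape, cassava, grape and cotton. All but XLOC_103795 were named as a housekeeping isozyme. XLOC_108343 was named PEPC 4, with its best protein hit in cacao. XLOC_120929 and XLOC_098722 were named PEPC kinase, with hits in Flaveria and tomato. XLOC_050404 had a short PEPC-like hit in tobacco and no nucleotide hit. XLOC_058717 carried 2 conflicting names. Its best protein hit was a PEPC of mulberry, and its best nucleotide hit was an ATP-dependent PEPCK of sweet orange. The 2 enzymes catalyse opposite steps and share no sequence family, and the name could not be settled here, so the locus is called by its identifier.

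On the scaffolds of the published genome as given in the table, XLOC_058717 lay on the minus strand of scaffold18812 from 55456 to 61910, XLOC_108071 on the minus strand of scaffold3552 from 95312 to 107251, and XLOC_103795 on the plus strand of scaffold33906 from 6966 to 16050. XLOC_011238 was on the plus strand of C4939377 from 9397 to 21032, XLOC_108343 on the plus strand of scaffold35628 from 288926 to 300486, and the kinase locus XLOC_120929 on the plus strand of scaffold5442 from 68597 to 71036. XLOC_130436 was assigned scaffold7051 from 38024 to 57441 on the plus strand, the same start and end that the table gives to 3 other loci, so it is not the span of the gene alone. No 2 of the 9 loci shared a scaffold. XLOC_108071 and XLOC_130436 had the same grape gene as best protein and nucleotide hit, and reads common to such similar copies may have been divided between them by the authors' counting.

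One library stood apart. Replicate 1 of 15A differed from its partners by a median of 0.298 and 0.307 on the log2 scale over the tested loci, against 0.106 to 0.137 for the other pairs of replicates. Its summed level of 29 loci of chlorophyll binding proteins and Rubisco small chains, markers of green tissue, was 965 FPKM, against 293 and 291 in the other 15A libraries. In CK these markers summed to 692 to 748 FPKM, against 288 to 310 in 15N and 273 to 292 in 15AN, with 22 of the 29 above 0 in some library, so they moved with the treatments. Of the 16 tested, 8 were called lower and 2 higher in 15A, while 11 were lower under 15N and 10 under 15AN. Over all tested loci, 6.82% were called lower and 7.49% higher in 15A, with 7.64% lower in 15N and 6.93% in 15AN. The 5 loci named Casparian strip membrane protein, markers of the root endodermis, were all detected. Their sum was 8.21 to 9.82 FPKM in CK, 11.8 to 12.9 in 15N, 10.95 to 14.1 in 15AN, and 3.19 in 15A replicate 1 against 16.9 and 15.5 in its partners. Loci with a protein hit in fungi or bacteria, 21 of 163 above 0, gave 6637 to 7811 FPKM for CK, 5224 to 6840 for 15A, 6163 to 7811 under 15N and 3834 to 5416 under 15AN. Much of that sum came from a single locus, XLOC_116563, a hypothetical protein of Pseudomonas. It had 4396 to 4792 FPKM in CK and 1876 to 3084 in the nitrogen libraries. The whole table gave 1420310 to 1517711 FPKM per library of CK, 2042250 to 2593466 per library of 15A, 2002096 to 2174581 under 15N and 1776098 to 1800638 under 15AN. The part of these differences in the results was not tested, and a change in the share of a cell type cannot be told apart from a change in RNA per cell in whole roots. Values without 15A replicate 1 and after scaling the libraries to the same total are given beside the results where they matter.

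XLOC_058717 was the most abundant locus of the set in every library and the only one of the tested loci with higher levels under nitrogen. Its levels in CK were 42.9, 46.4 and 44.7 FPKM. In 15A they were 375, 313 and 302 FPKM, and in 15N they were 330, 337 and 297 FPKM. In 15AN they were 120, 116 and 118 FPKM. The order was thus CK below 15AN below 15N and 15A, with no overlap between libraries except that 15N and 15A overlapped. The group means were 44.7 ± 1.79 FPKM in CK, 330 ± 39.2 in 15A, 321 ± 21.4 under 15N and 118 ± 1.66 under 15AN (SD, n = 3). These were 7.39, 7.20 and 2.64 times the CK mean in 15A, 15N and 15AN. The libraries that received both ions therefore held a lower level than those that received either ion alone.

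On the log2(FPKM + 1) scale, the differences of XLOC_058717 from CK were 2.85 ± 0.09 in 15A, 2.82 ± 0.09 in 15N and 1.38 ± 0.09 in 15AN (SE of the fit). The 15AN level was 1.47 below that of 15A and 1.44 below that of 15N on the same scale. In 15A against CK, 99.4% of the 22592 tested loci had a smaller log2 fold change, which placed XLOC_058717 at rank 137 from the top. It was at rank 144 in 15N and at rank 740 in 15AN. By its mean FPKM, XLOC_058717 stood above 81.2% of the tested loci in CK, 96.7% in 15A, 96.8% under 15N and 91.8% under 15AN. Without 15A replicate 1, which had its highest value, the difference in 15A was 2.76. The summed FPKM of the libraries moved in the same order as this locus, and with all libraries scaled to the same total its differences from CK were 2.23, 2.29 and 1.10.

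**Figure D1:**
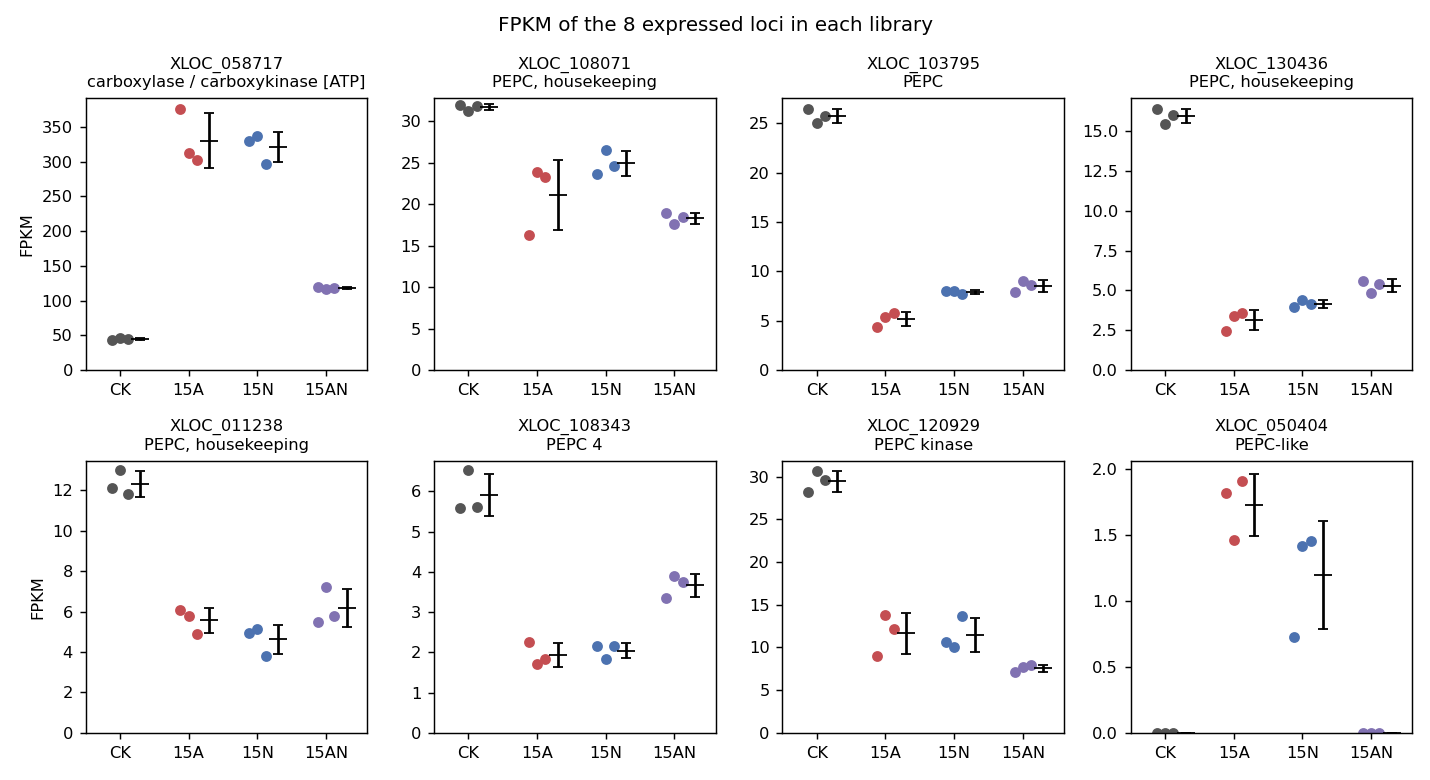
FPKM (linear axis from 0) of the 8 loci above 1 FPKM in at least 1 library, with 1 point per library and the mean and SD (n = 3) of each treatment beside it. XLOC_058717 reached 297 to 375 FPKM in 15A and 15N against 42.9 to 46.4 in CK, whereas the 5 PEPC loci and the kinase locus XLOC_120929 were highest in CK in every panel.

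The 5 tested PEPC loci went the other way from XLOC_058717. XLOC_108071, a housekeeping PEPC by its grape hit and the most abundant of them, had levels of 31.9, 31.3 and 31.8 FPKM in CK. It had 16.3, 23.9 and 23.2 FPKM in 15A, 23.6, 26.6 and 24.6 in 15N, and 18.9, 17.6 and 18.4 in 15AN. All nitrogen libraries lay below all CK libraries. The log2 fold changes were -0.58 ± 0.12 in 15A, -0.34 ± 0.12 in 15N and -0.76 ± 0.12 in 15AN (SE; limma, adjusted p = 0.0027, 0.043 and 0.00063). They stayed under the fold threshold of 1 on the log2 scale, so that XLOC_108071 was called in none of the 3 comparisons with CK. Without 15A replicate 1, its lowest 15A library, the change in 15A was -0.41.

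XLOC_103795, a PEPC by its cassava hit, fell in all 3 treatments. Its levels were 26.5, 25.0 and 25.7 FPKM in CK, 4.40, 5.35 and 5.80 in 15A, 8.06, 7.99 and 7.68 in 15N, and 7.92, 9.01 and 8.66 in 15AN. The CK libraries stood far above the rest, and the 15A libraries were the lowest. The log2 fold changes of XLOC_103795 were -2.12 in 15A, -1.59 in 15N and -1.49 in 15AN, each with an SE of 0.09 (limma, adjusted p = 6.9e-08, 4.7e-07 and 1.2e-06).

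XLOC_130436, whose best hits are the same grape housekeeping PEPC as those of XLOC_108071, had 16.3, 15.5 and 16.0 FPKM in CK. It had 2.44, 3.42 and 3.59 FPKM in 15A, 3.94, 4.43 and 4.12 in 15N, and 5.60, 4.87 and 5.43 in 15AN. The 4 groups did not overlap, with 15A the lowest and 15AN the highest of the nitrogen treatments. XLOC_130436 also fell in all 3, with log2 fold changes of -2.04 in 15A, -1.71 under 15N and -1.43 under 15AN and an SE of 0.11 (limma, adjusted p = 4e-07, 1.2e-06 and 6.5e-06). Its ratio to XLOC_108071, the other locus with that grape hit, was 0.503 ± 0.009 in CK, 0.149 ± 0.006 in 15A, 0.167 ± 0.0005 under 15N and 0.290 ± 0.011 under 15AN (SD, n = 3). The 2 loci thus did not move in proportion, and their ratios in CK did not overlap with those of any treatment.

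XLOC_011238, a housekeeping PEPC by its cotton hit, had 12.1, 13.01 and 11.8 FPKM in CK. Its levels were 6.09, 5.76 and 4.90 FPKM in 15A, 4.93, 5.17 and 3.79 in 15N, and 5.50, 7.23 and 5.78 in 15AN. No nitrogen library reached the CK range, and 15A overlapped with both other treatments. XLOC_011238 fell in the single-ion treatments, with log2 fold changes of -1.02 ± 0.13 in 15A and -1.25 ± 0.13 in 15N (SE; limma, adjusted p = 9.5e-05 and 2.5e-05). Its difference of -0.90 ± 0.13 in 15AN had an adjusted p of 0.00028 by limma but was under the fold threshold, and without 15AN replicate 2 it passed, at -1.003. The 15A value was close to that threshold, and it was -0.98 without CK replicate 2 and -0.94 without 15A replicate 3, which ended the call, as did quantile normalization, at -0.97, and a pseudocount of 5, at -0.71. The latter also ended the call in 15N, at -0.85.

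XLOC_108343 was named PEPC 4, the name of the bacterial-type enzyme in Arabidopsis. Its levels were 5.59, 6.52 and 5.62 FPKM in CK, 2.27, 1.71 and 1.85 in 15A, 2.15, 1.84 and 2.15 in 15N, and 3.34, 3.90 and 3.75 in 15AN. It was the least abundant of the PEPC loci in CK, and 15AN lay between CK and the single-ion treatments. XLOC_108343 fell in the single-ion treatments, with log2 fold changes of -1.24 ± 0.12 in 15A and -1.18 ± 0.12 in 15N (SE; limma, adjusted p = 1.8e-05 and 2.5e-05), and its value in 15AN was -0.57 ± 0.12 (adjusted p = 0.0035), under the fold threshold. This locus passed the minimum of 5 FPKM only through CK, where it was highest, and at such low levels the pseudocount of 1 understates the change. At a pseudocount of 5 its values in 15A and 15N were -0.65 and -0.63, and with quantile normalization that in 15N was -0.96, which ended these calls.

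The kinase locus XLOC_120929 had 28.2, 30.6 and 29.6 FPKM in CK. It had 9.03, 13.8 and 12.1 FPKM in 15A, 10.6, 10.1 and 13.7 in 15N, and 7.12, 7.66 and 7.96 in 15AN. Here 15AN was the lowest group, below every library of 15A and 15N, which was not so for any PEPC locus in both comparisons. The kinase fell in all 3 treatments, with log2 fold changes of -1.29 ± 0.14 in 15A, -1.30 ± 0.14 in 15N and -1.83 ± 0.14 in 15AN (SE; limma, adjusted p = 4.5e-05, 4.4e-05 and 6.4e-06).

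The remaining loci were barely expressed. XLOC_050404, the short PEPC-like locus, was listed at 0 in all CK and all 15AN libraries. It had 1.82, 1.47 and 1.91 FPKM in 15A, and 0.727, 1.42 and 1.45 in 15N. It lay just inside the limit of 1 FPKM, and it was not tested. The kinase-like locus XLOC_098722, just outside the limit, was listed at 0 in all 12 libraries.

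Counted over the 6 tested loci other than XLOC_058717, 5 were called lower and 0 higher in 15A against CK, where 6.82% of all tested loci were called lower and 7.49% higher. In 15N against CK the count was again 5 lower and 0 higher, beside 7.64% and 6.85% of all loci. In 15AN against CK it was 3 lower and 0 higher, beside 6.93% and 5.3%. A call needed both an adjusted p under 0.05 by limma and a change of more than 1 on the log2 scale. At an unadjusted p under 0.05, all 6 were lower and 0 higher in each of the 3 comparisons, where 56.7%, 55.5% and 52.2% of all tested loci passed that limit in either direction. The median log2 fold change of the 6 loci was -1.26 in 15A, -1.27 under 15N and -1.16 under 15AN, beside 0.08, 0.08 and 0.07 over all tested loci. Leaving out XLOC_108343, which had passed only through CK, the counts were 4, 4 and 3 of 5. The 3 comparisons share the CK libraries.

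With all libraries scaled to the same total FPKM, the median of all tested loci moved to -0.50 in 15A, -0.41 in 15N and -0.20 in 15AN. The share of loci called lower against higher was then 19.7% against 2.82%, 16.5% against 3.14%, and 10.5% against 3.31%. Relative to those medians the 6 loci were still lower in each treatment, and 6, 5 and 5 of them were called lower. The first 2 counts include XLOC_108343, at -1.73 in 15A and -1.61 in 15N, which had passed the minimum of 5 FPKM only through CK. In 15AN it was at -0.83 and not called. XLOC_108071 was then at -1.19 in 15A and -1.05 in 15AN.

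**Figure D2:**
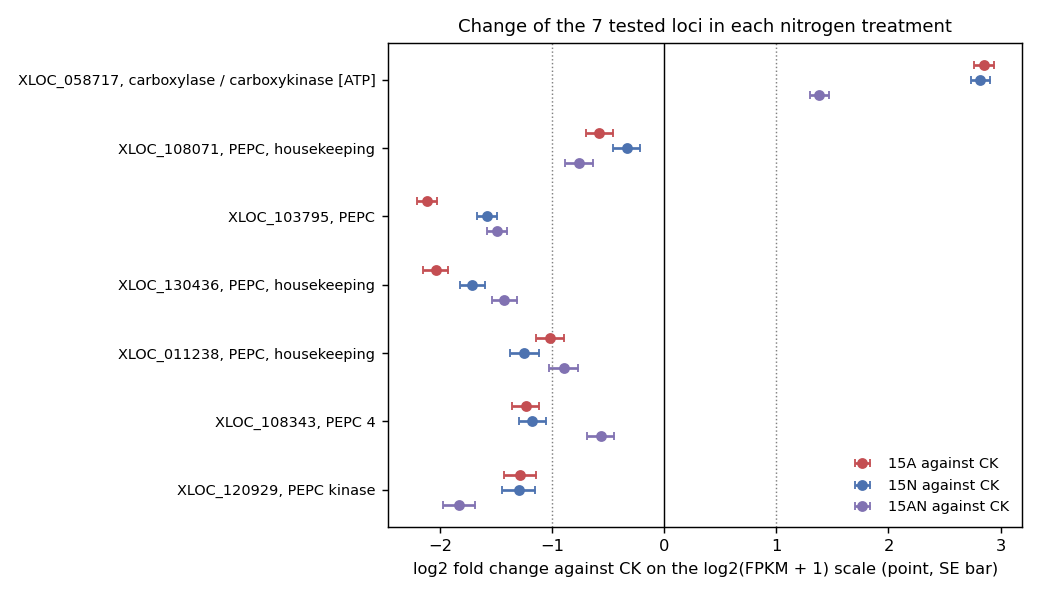
Log2 fold change against CK (points, with the SE of the fit as bars) of the 7 tested loci on the log2(FPKM + 1) scale, with dotted lines at the fold threshold. XLOC_058717 lay at 1.38 to 2.85 and every other locus below 0, with XLOC_103795 lowest at -2.12 in 15A; the values of XLOC_058717 are a description.

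Between the nitrogen treatments 0 of the 6 loci were called by limma in any of the 3 comparisons, where 4.59% of all tested loci were called in 15N against 15A, 7.83% in 15AN against 15A and 6.19% in 15AN against 15N. At an unadjusted p under 0.05 2 loci were higher in 15N than in 15A. By the same measure 15AN had 3 loci above and 1 below 15A, and 3 above and 2 below 15N. Such p-values were common over the whole table, at 36.0%, 45.3% and 39.1% of the tested loci. Under the fold threshold the 6 loci did not share an order. XLOC_011238 was at -0.23 in 15N and at 0.12 in 15AN against 15A (limma, adjusted p = 0.23 and 0.5). XLOC_103795 was 0.53 higher in 15N and 0.63 higher in 15AN than in 15A on the log2 scale (limma, adjusted p = 0.0022 and 0.00045), with no overlap between libraries in either case. XLOC_130436 and XLOC_108343 were 0.61 and 0.67 higher in 15AN than in 15A (adjusted p = 0.0022 and 0.002), and XLOC_108343 was 0.61 higher in 15AN than in 15N (adjusted p = 0.0043). The kinase XLOC_120929 had the opposite sign, at -0.54 in 15AN against 15A and -0.53 in 15AN against 15N (adjusted p = 0.015 and 0.022), but with equal totals these were -0.24 and -0.31 (adjusted p = 0.3 and 0.21). XLOC_108071 was at -0.43 in 15AN against 15N (adjusted p = 0.027) and at -0.18 in 15AN against 15A (adjusted p = 0.28), which with equal totals were -0.20 (adjusted p = 0.43) and 0.14. For the kinase, 15N and 15A differed by -0.01 ± 0.14 (SE; adjusted p = 0.96).

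The effect of ammonium without nitrate (15A against CK) was then set against its effect with nitrate (15AN against 15N) as an interaction in the same fit. A positive interaction was called for 4 of the 6 loci and a negative one for 0, where 10.2% of all tested loci were called positive and 12.3% negative. Without XLOC_108343 the count was 3 of 5. The interaction was 2.21 ± 0.13 for XLOC_103795, 2.33 ± 0.16 for XLOC_130436, 1.37 ± 0.18 for XLOC_011238 and 1.85 ± 0.17 for XLOC_108343 on the log2 scale (SE; limma, adjusted p = 5.1e-07, 1.8e-06, 0.00015 and 1.4e-05). Ammonium thus came with lower levels of these PEPC loci when given alone, and with a difference of 0.10 to 0.61 relative to nitrate alone when given with nitrate, of which only the 0.61 of XLOC_108343 had an adjusted p under 0.05 by limma. For the kinase XLOC_120929 the interaction was 0.76 ± 0.20 (adjusted p = 0.011), under the threshold, and for XLOC_108071 it was 0.16 ± 0.17 (adjusted p = 0.49). With equal totals they were 1.57 (adjusted p = 0.00036), which was called, and 0.99 (adjusted p = 0.0065). At a pseudocount of 5 the interactions of XLOC_011238 and XLOC_108343 were 0.92 and 0.95 and no longer called. XLOC_058717 had the opposite sign at -4.29 ± 0.12 (SE, not tested), since ammonium came with a higher level without nitrate and a lower one with nitrate in every library.

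The summed FPKM of the 5 PEPC loci was 91.5 ± 0.77 in CK, with a range of 90.9 to 92.4. It was 37.0 ± 4.81 in 15A, 43.7 ± 2.03 under 15N and 42.0 ± 0.67 under 15AN (SD, n = 3), or 0.404, 0.477 and 0.458 of the CK mean. The 15A sum was lowest in replicate 1, at 31.5 FPKM, and highest at 40.1. XLOC_108071 made up 34.6% ± 0.37 of that sum in CK, 56.8% ± 4.40 in 15A, 57.1% ± 1.54 under 15N and 43.6% ± 2.27 under 15AN. XLOC_103795 made up 28.1% in CK, 14.01% in 15A, 18.1% under 15N and 20.3% under 15AN. The share of XLOC_130436 went from 17.4% in CK to 8.47% in 15A, 9.53% in 15N and 12.7% in 15AN. The sum leaves out XLOC_058717, the PEPC-like XLOC_050404 and the loci that named PEPC only in the nucleotide hit. XLOC_050404 was at 0 in CK and 15AN and reached 1.91 FPKM in 15A and 1.45 in 15N, opposite in direction to the sum. The shares of XLOC_011238 were between 10.6% and 15.4%, and those of XLOC_108343 between 4.70% and 8.73%, as group means. These sums, shares and ratios are descriptions with no test.

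Per unit of summed PEPC, XLOC_058717 stood at 0.488 ± 0.023 in CK, 9.13 ± 2.42 in 15A, 7.36 ± 0.36 under 15N and 2.81 ± 0.08 under 15AN (SD, n = 3). This ratio within a library does not depend on the scaling between libraries, and its ranges did not overlap except between 15A and 15N. The ratio of the kinase XLOC_120929 to summed PEPC was 0.322 ± 0.016 in CK and 0.313 ± 0.028 in 15A, which overlapped. It was 0.264 ± 0.054 in 15N and 0.181 ± 0.008 in 15AN, where every library lay below those of the other groups.

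**Figure D3:**
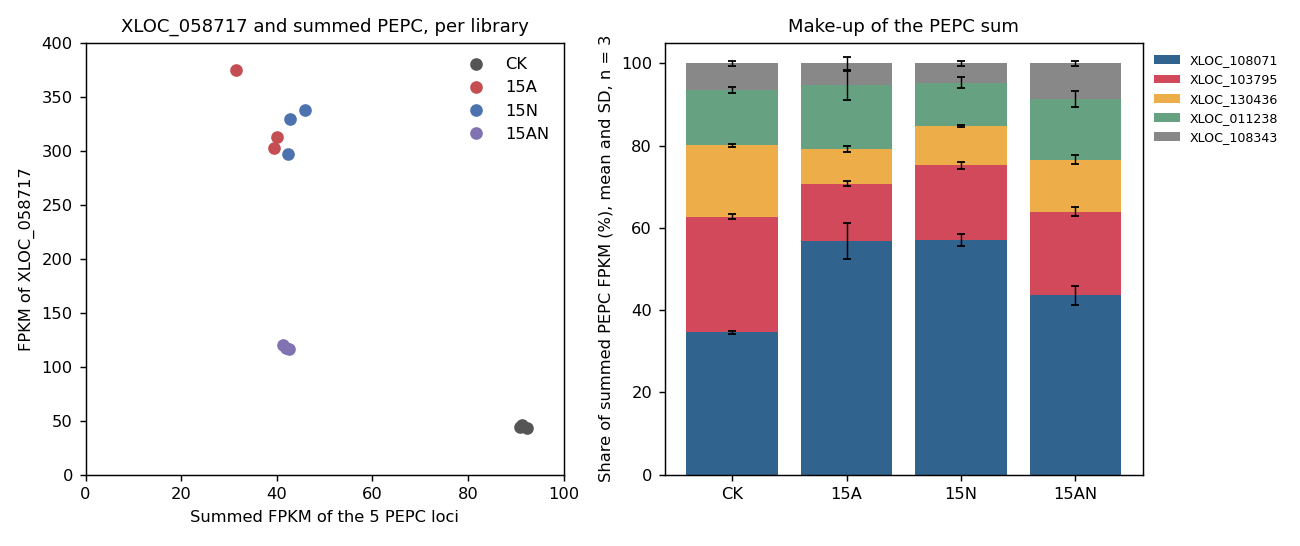
Left, FPKM of XLOC_058717 against the summed FPKM of the 5 PEPC loci, 1 point per library; right, share of each locus in that sum (%), as stacked group means with SD bars (n = 3). The CK libraries stand alone at a sum of 90.9 to 92.4 FPKM, 15AN has a PEPC sum close to that of 15N but a lower XLOC_058717, and XLOC_108071 takes 57.1% of the sum in 15N against 34.6% in CK.

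The enzymes and carriers around PEP, oxaloacetate and malate were read from 11 lists of loci chosen by description. Of their 121 tested loci, 9 were called higher and 5 lower in 15A (7.44% and 4.13%), 10 rose and 5 fell under 15N (8.26% and 4.13%), and 6 rose and 5 fell under 15AN (4.96% and 4.13%), close to the shares over all tested loci given above. With the libraries scaled to the same total FPKM, the counts were 1 higher and 19 lower in 15A, 2 and 9 in 15N, and 1 and 7 in 15AN. Under that scaling, 2.82% of all tested loci were called higher and 19.7% lower in 15A, 3.14% and 16.5% in 15N, and 3.31% and 10.5% in 15AN.

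Enolase, which makes PEP, had 5 tested loci, of which 1 rose in 15A and in 15N. XLOC_031125 had a mean of 2605 FPKM in CK, 8535 in 15A, 8501 under 15N and 5008 under 15AN, with log2 fold changes of 1.70 and 1.71 in the single-ion treatments (limma, adjusted p = 4.9e-06 for both) and 0.94 under 15AN, under the fold threshold but at 1.03 without 15AN replicate 3. Pyruvate kinase, which competes for PEP, had 18 tested loci, of which 1 was called higher in each treatment and 1 lower in 15A. XLOC_034749, a cytosolic isozyme, rose in all 3 treatments, with means of 344 FPKM for CK, 1051 for 15A, 1181 under 15N and 738 under 15AN. Its log2 fold changes were 1.60, 1.78 and 1.10 (limma, adjusted p = 9.7e-08, 5.8e-08 and 2e-06). Both loci had the order of XLOC_058717, lowest in CK and next in 15AN. The plastidic subunit XLOC_068200 fell in 15A, from 5.84 to 2.09 FPKM, a log2 fold change of -1.15 (limma, adjusted p = 6.9e-05), and had passed the minimum of 5 FPKM only through CK. Its call in 15A was lost with quantile normalization, at -0.91, and at a pseudocount of 5, at -0.61. The values of XLOC_068200 in 15N and 15AN, at -0.89 and -0.53, were under the fold threshold. That in 15N passed it with equal totals, at -1.33, at a pseudocount of 0.1, at -1.10, and without 15N replicate 3, at -1.01. With equal totals, XLOC_034749 was at 0.98 in 15A and 0.81 in 15AN, under the fold threshold, as was its 0.82 in 15AN with quantile normalization.

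None of the 8 tested malate dehydrogenases, which reduce oxaloacetate to malate, was called in any treatment, and their median log2 fold changes were 0.33, 0.30 and 0.16. At an unadjusted p under 0.05, 6, 5 and 4 of them differed from CK by limma, near the 56.7%, 55.5% and 52.2% of all tested loci. Pyruvate, phosphate dikinase and the PEP translocators also had 0 calls among 2 and 1 tested loci, and at an unadjusted p under 0.05 the first had 0 and the second 1 in 15A, 0 in 15N and 1 in 15AN. Malic enzyme, which decarboxylates malate, had 1 of 7 loci called higher in 15A and in 15N. XLOC_056984, an NADP type, had 119 FPKM in CK, 279 in 15A, 274 under 15N and 203 under 15AN, with log2 fold changes of 1.22, 1.19 and 0.76 (limma, adjusted p = 3.5e-07 and 4.3e-07 for the first 2). With equal totals these were 0.59 in 15A and 0.67 in 15N, and with quantile normalization 0.81 and 0.87, all under the fold threshold.

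Among the 39 tested enzymes of citrate and isocitrate, 1 rose and 1 fell in 15A, 3 rose and 2 fell in 15N, and 4 rose and 2 fell in 15AN. Over all tested loci, 7.49%, 6.85% and 5.3% were called higher in 15A, 15N and 15AN, and 6.82%, 7.64% and 6.93% lower. The NAD-dependent isocitrate dehydrogenase XLOC_066790 rose in all 3, from 65.5 FPKM in CK to 161, 140 and 144 in 15A, 15N and 15AN, with log2 fold changes of 1.28, 1.09 and 1.12. A second one, XLOC_090810, was called in 15N at 1.43, with 27.5 FPKM against 9.42 in CK, and in 15A it passed the threshold only without 15A replicate 1, at 1.04. With equal totals, neither was past the fold threshold, at 0.65, 0.56 and 0.84 for XLOC_066790 and 0.93 in 15N for XLOC_090810. With quantile normalization XLOC_066790 was at 0.93, 0.83 and 0.94 in 15A, 15N and 15AN, also under that threshold.

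The enzymes that place nitrogen on carbon skeletons were read next. Cytoplasmic aspartate aminotransferase XLOC_041081, which turns oxaloacetate into aspartate, had 93.5 FPKM in CK, 212 in 15A, 147 under 15N and 99.9 under 15AN. It rose by 1.16 on the log2 scale in 15A (limma, adjusted p = 2e-06) and stood at -1.07 in 15AN against 15A (adjusted p = 9.9e-06). The call in 15A was lost with equal totals, at 0.54, and with quantile normalization, at 0.78. Its values of 0.65 in 15N and 0.10 in 15AN against CK were under the fold threshold, and the latter turned to -0.19 with equal totals and to -0.11 with quantile normalization. Of 18 tested loci for glutamine, glutamate and asparagine synthesis, 3 rose and 1 fell in 15A, 2 rose and 1 fell in 15N, and 0 rose and 1 fell in 15AN (at an unadjusted p under 0.05, 12 differed in 15AN by limma, 7 of them higher, beside 52.2% of all tested loci). The shares called over all tested loci are those given above for the citrate and isocitrate enzymes. The NADH-dependent glutamate synthase XLOC_097848 had 65.9 FPKM in CK, 177 in 15A, 153 under 15N and 126 under 15AN, with log2 fold changes of 1.40, 1.20 and 0.92. With equal totals its values in 15A and 15N were 0.77 and 0.67, and with quantile normalization that in 15N was 0.93, under the fold threshold. A second one, XLOC_097847, was called in 15A only, at 1.10 (adjusted p = 0.0035), with 102 FPKM in 15A replicate 1 against 212 and 206 in its partners. That call was lost without 15A replicate 2, at 0.92, and without 15A replicate 3, at 0.94, as well as with equal totals, at 0.47, and with quantile normalization, at 0.74.

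Carriers and carbonic anhydrase, which supplies the bicarbonate that PEPC uses, each had calls in both directions or downward. The malate channel homologue XLOC_086111 (ALMT12 by its hit) fell from 6.37 FPKM in CK to 1.59 in both 15A and 15N, with log2 fold changes of -1.52 and -1.53, and was at 4.58 FPKM in 15AN, 1.11 higher on the log2 scale than in 15A (limma, adjusted p = 0.001). It passed the minimum of 5 FPKM only through CK, and at a pseudocount of 5 its values in 15A and 15N were both -0.79, which ended these calls. The tonoplast dicarboxylate transporter XLOC_084483 had 23.0 FPKM in CK, 11.6 in 15A, 13.8 under 15N and 2.73 under 15AN, and fell under 15AN with a log2 fold change of -2.69. In 15A it passed the threshold only without 15A replicate 1, at -1.23, without CK replicate 3, at -1.02, or under 3 of the other settings. Carbonic anhydrase XLOC_116224 had 40.6 FPKM in CK and 92.7, 111 and 85.1 in 15A, 15N and 15AN, with log2 fold changes of 1.17, 1.42 and 1.05. With equal totals these were 0.55, 0.90 and 0.76, under the fold threshold. With quantile normalization XLOC_116224 was at 0.89 in 15A and 0.92 in 15AN, and at a pseudocount of 5 at 0.98 in 15AN, also under it. Another carbonic anhydrase, XLOC_030434, was called lower in 15N, at -1.02. That call was lost at -0.97 without CK replicate 1, at -0.995 without CK replicate 2 and at -0.80 with a pseudocount of 5.

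**Figure D4:**
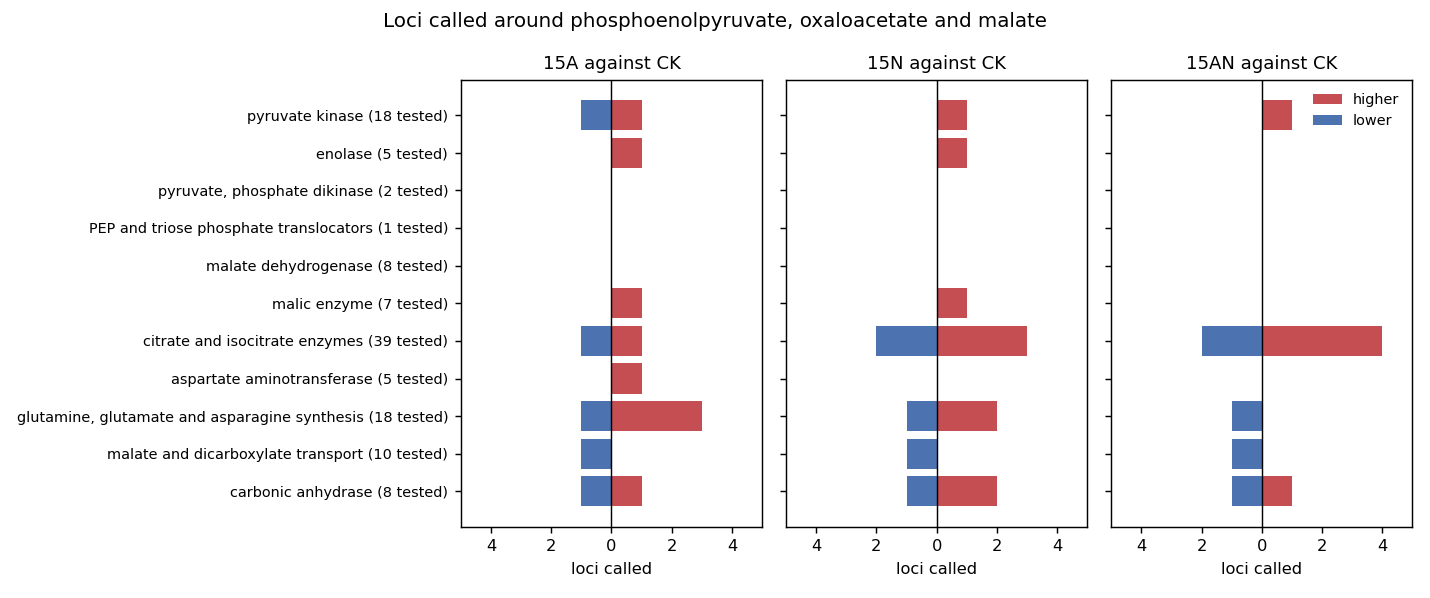
Number of loci called higher (right) and lower (left) against CK in 15A, 15N and 15AN for 11 lists of enzymes and carriers around PEP, oxaloacetate and malate, with the number tested beside each name. Calls were few in every list, with 9, 10 and 6 loci higher and 5 lower in each treatment of the 121 tested, and malate dehydrogenase had none among 8.

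The loci most like XLOC_058717 in pattern were sought among 7478 described loci averaging 20 FPKM or more, by Pearson's r of log2(FPKM + 1) over the 12 libraries, which fall into 4 treatments. The highest was XLOC_057017, an uncharacterized protein (r = 0.998), with 42.5, 622, 538 and 148 FPKM in CK, 15A, 15N and 15AN. It was followed by a Rubisco activase, XLOC_022731 (r = 0.997), with 68.2, 313, 327 and 152 FPKM. The next were a FAD synthase, XLOC_115741 (r = 0.997), a thaumatin-like protein, XLOC_012200 (r = 0.994), and a D-aminoacyl-tRNA deacylase-like protein, XLOC_049611 (r = 0.994). All 5 had group means in which CK was lowest and 15AN next, which their selection by likeness to XLOC_058717 favours. These correlations are descriptions of likeness over libraries that share their treatments.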

How the data were processed

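Root RNA of 12 libraries was sequenced after removal of ribosomal RNA. According to the methods and the labels, the authors aligned reads with TopHat2 2.0.13, assembled transcripts with Cufflinks 2.2.1 and deposited FPKM values normalized by Cuffnorm 2.2.1, with a position and the best protein and nucleotide hit per locus. Whether reads were counted by strand is not given in the sources used here. Columns of samples not used numbered 0. The table gives no depth, and read numbers stated elsewhere were not used here. From the steps between low values, 1 read was worth 1.35 to 1.47 times as much FPKM in 15A as in CK replicate 1, 1.33 to 1.37 in 15N, 1.19 to 1.23 in 15AN and 1.00 to 1.03 in CK. This is rough, since 15.9% to 22.3% of loci lay at the estimate.

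FPKM are not counts, so limma 3.58.1 (R 4.3.3) with a mean-variance trend was run on log2(FPKM + 1) over all 12 libraries with 4 group means, two-sided, with Benjamini-Hochberg adjustment over the 22592 loci averaging 5 FPKM or more in some treatment. The pseudocount of 1 understates the change of low loci. The limits for a call were those of the study, an adjusted p of 0.05 and a log2 fold change of 1. The script was tested on simulated data. Members and lists were chosen with earlier results of these data known. Named were all members, up to 2 called loci of each list with the highest mean FPKM, and the 5 loci most alike in pattern. Exceptions chosen after their values were seen are the 2 loci under other observations. Alternatives were other pseudocounts, filters, scalings, a fit of the compared groups alone, a replicate block and leaving out each library. No sequence was printed, because the table holds none.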

Additional observations from a re-analysis of the deposited data

Results flagged for a closer look

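Results stand here because the effect of ammonium differed with and without nitrate, tested as the interaction in the limma fit. The interaction was 2.214 on the log2 scale for XLOC_103795, 2.325 for XLOC_130436, 1.368 for XLOC_011238 and 1.849 for XLOC_108343, all PEPC loci, with adjusted p-values of 5.1e-07, 1.8e-06, 0.00015 and 1.4e-05. Their log2 fold changes were -2.12 to -1.02 in 15A against CK and 0.10 to 0.61 in 15AN against 15N. The 4 loci stand here for their positive interaction, which favours this pattern. XLOC_108343 passed the minimum of 5 FPKM only through CK, a group that enters the interaction, and at a pseudocount of 5 its interaction was 0.95 and not called. Positive interactions were called for 10.2% of all tested loci.

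For XLOC_058717 the interaction was -4.288, a difference that was not tested. Every 15A library lay above every CK library, and every 15AN library below every 15N library.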

How the results depend on the processing

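At a pseudocount of 5 the counts of called PEPC and kinase loci were 3 in 15A, 3 in 15N and 2 for the interaction, since the same levels then give smaller fold changes. With the libraries scaled to the same total FPKM, the count in 15AN was 5. Quantile normalization gave 4 in 15A and 4 in 15N. Leaving out 1 library at a time gave 4 to 5 loci in 15A (4 without CK replicate 2 and without 15A replicate 3), 5 in 15N, 3 to 4 in 15AN (4 without 15AN replicate 2), 0 in each comparison between nitrogen treatments and 4 for the interaction. Of 911 single values of the 6 loci over all alternatives, 887 kept direction and side of the threshold, 10 lost the call, 5 gained it and 9 changed sign. Many of the 887 kept their fold change by construction, so this count overstates how stable the values were. Another filter, a fit of the compared groups alone, a replicate block or leaving out a library of another group returns the same fold change. Only the adjusted p could move there.

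The 9 sign changes were in values that were not called. For the kinase XLOC_120929 in 15N against 15A (-0.013) they were 0.073 with equal totals, 0 with median of ratios, 0.107 without 15A replicate 2, 0.024 without 15A replicate 3, 0.033 without 15N replicate 1 and 0.066 without 15N replicate 2, with -0.171 to 0.107 over all single libraries left out. XLOC_108343 in the same comparison was at -0.003 without 15A replicate 2, the lowest of a range to 0.133. XLOC_108071 in 15AN against 15A was at 0.142 with equal totals, and its interaction was -0.015 without 15A replicate 1, the lowest of a range to 0.25 over single libraries left out, while equal totals gave 0.993. Of the other loci named, XLOC_041081 in 15AN against CK was at -0.193 with equal totals and -0.111 with quantile normalization. Of the 918 values of these 14 loci, 868 kept direction and side, again many of them by construction, while 36 lost and 12 gained the call. The cause was not tested beyond what each setting does by construction.

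Against CK, XLOC_058717 stayed at 2.23 to 2.91 in 15A, while 15N gave 2.29 to 2.87 and 15AN gave 1.10 to 1.41, lowest in each with equal totals. Replicate numbers did not pair the libraries. Deviations of same-numbered libraries correlated at -0.10 to 0.05, and 4 of 12 libraries correlated best with their own number. With the replicate as a block the counts were 5 in 15A, 5 in 15N, 3 in 15AN, 0 between nitrogen treatments and 4 for the interaction, so the replicate block changed no count. With 3 libraries a group and no read counts, the precision of levels below about 5 FPKM is not known.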

Other observations

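There were 8 further loci that named PEPC only in the nucleotide hit, of which 2 exceeded 1 FPKM in a library. Both were chosen after their values were seen. XLOC_118658, whose protein hit is a hypothetical protein of peach and whose nucleotide hit is a partial PEPC mRNA of mulberry, had 98.9, 104 and 104 FPKM in CK. It had 41.3, 51.9 and 47.9 FPKM in 15A, 26.2, 30.0 and 24.8 in 15N, and 28.0, 25.7 and 23.2 in 15AN. Its log2 fold changes were -1.11 ± 0.10 in 15A, -1.89 ± 0.10 in 15N and -1.96 ± 0.10 in 15AN (SE; limma, adjusted p = 1.1e-05, 3.7e-07 and 5.3e-07). In CK its level was above the summed 91.5 FPKM of the 5 PEPC loci, and unlike them it was lower in 15N and 15AN than in 15A, with no overlap. Its interaction was 1.04 ± 0.14 (SE; limma, adjusted p = 0.00021), positive as for 4 of the PEPC loci. Whether XLOC_118658 encodes a PEPC was not settled, since its protein hit does not name that enzyme. The protein hit of XLOC_058717 carries the same mulberry PEPC name beside a PEPCK nucleotide hit, so whether XLOC_118658 encodes a PEPCK was not settled either. XLOC_040134, with a nucleotide hit to PEPC 4 of sweet orange, had 2.69 to 3.02 FPKM for CK, 1.73 to 2.87 for 15A, 1.53 to 2.06 under 15N and 3.06 to 3.78 under 15AN, and was too low to enter the fit.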
